A study of Mus musculus with 2 samples.

Results

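The nuclear genes for the subunits of the mitochondrial respiratory chain were compared between 2 libraries of mouse small intestine, 1 from a mouse line lacking Spib in the gut epithelium and 1 labelled wild type. Members were taken by name, from gene symbols that begin with Nduf and one of the letters a, b, c, s or v, with Uqcr, with Cox and a number from 4 to 8, or with Atp5, together with Cyc1, Sdha, Sdhb, Sdhc and Sdhd. This gave 92 of the 27275 genes in the table after 5 pseudogenes with -ps in their names were left out. Of the 92 members, 80 encode structural subunits, 8 are Ndufaf genes for assembly factors of complex I, and 4 are paralogs or other factors that share a name (Ndufa4l2, Cox7a2l, Atp5s and Atp5sl). They lie on 19 chromosomes.

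The wild-type library carries the genotype label Spib+Villin-Cre and the knockout library the label Spibfl/flVillin-Cre. Both labels name Villin-Cre, a transgene in which the promoter of the epithelial gene villin expresses Cre, so deletion is directed to epithelial cells and the other cells of the gut wall keep Spib. The mice were naive, and the tissue was proximal small intestine per the design text. The sources used here do not give the age of the mice or say whether several were pooled. Each genotype has 1 library, so there is no replicate check and no p-value, and every difference below is one between these 2 libraries.

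Expression is given in FPKM, a read count scaled to exon length and library size. The implied depths were 17425640 reads (wild type) and 17658566 reads (knockout), with a median of 1217.5 and 1316 reads per member. Folds are knockout FPKM over wild-type FPKM, with 95% exact counting intervals that leave out variation between mice and treat each read as independent, which reads from PCR without molecular identifiers are not. Spib itself, an ETS family transcription factor, was 4.94 FPKM in the wild type and 0.592 FPKM in the knockout, 8.34-fold lower (5.70 to 12.6). Markers of other cell types also differed between the libraries. The 6 B and plasma cell markers were all lower in the knockout and summed to 213 and 68.9 FPKM, the 7 T cell markers were all lower at 31.3 and 12.6 FPKM, and the 6 tuft cell markers were all higher at 9.02 and 49.5 FPKM. The 6 Paneth cell markers, 5 of them higher, summed to 19107 and 29172 FPKM, and the 5 macrophage and dendritic cell markers, 4 of them lower, to 76.1 and 54.2 FPKM. The 6 goblet cell markers, 4 of them higher, summed to 5359 and 6646 FPKM. Their median log2 ratio was 0.03, with 5 within 1.2-fold and 1 at least 2-fold higher. The 10 enterocyte markers were mixed: 6 were higher and 4 lower, with a median log2 ratio of 0.10, while their sum was 14918 FPKM in the wild type and 13262 FPKM in the knockout. Genes of distal intestine were abundant in both libraries despite the proximal label, with Fabp6, the ileal bile acid binding protein, at 2030.2 and 1735 FPKM. Distal markers summed to 3156 and 2862 FPKM, with 4 of 5 lower, and proximal markers to 572 and 874 FPKM, with 4 of the 5 compared higher. In the proximal list, 2 genes were at least 1.2-fold higher and 1 was at least 2-fold lower. Its most abundant gene alone held 486 and 764 FPKM of the sum. The proximal list shares Fabp1 and Apoa4 with the enterocyte markers. In bulk tissue, fewer cells of a type and less RNA per cell cannot be told apart, and the part of these shifts in the results below was not tested.

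The respiratory chain sits in the inner mitochondrial membrane. Complex I takes electrons from NADH and complex II from succinate, coenzyme Q carries them to complex III, cytochrome c carries them on to complex IV, and complex IV passes them to oxygen. Complexes I, III and IV pump protons, and complex V, the ATP synthase, uses the returning protons to make ATP. Complex II is built from nuclear genes alone, whereas the other complexes combine nuclear subunits with a few encoded in the mitochondrial genome. Absorptive enterocytes are rich in mitochondria because nutrient uptake and lipid packaging consume much ATP.

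Most members were somewhat higher in the knockout library. A log2 ratio was taken for each gene as log2((knockout FPKM + 1) / (wild-type FPKM + 1)), and 88 members with at least 1 FPKM in at least 1 library were compared. Their median log2 ratio was 0.14, with quartiles from -0.00 to 0.26, against -0.05 over all 13479 genes compared. The ratio was above 0 for 65 members and below 0 for 23, whereas 41.3% of all genes compared lay above 0 and 58.7% below. At least 1.2-fold higher were 21 members (23.9%), against 11.3% of all genes. At least 1.2-fold lower were 2 members, Ndufv3 and Cox6b2, against 18.8% of all genes. No member was at least 2-fold higher, where 1.61% of all genes were, and 1 member, Cox6b2, was at least 2-fold lower, where 2.51% were. The counting interval of the fold lay above 1 for 47 members and below 1 for 8 and spanned 1 for 33, against 17.2% above and 28.3% below for all genes with recovered reads and 27.1% above and 36.4% below for protein-coding genes of at least 10 FPKM. Most members are abundant, so protein-coding genes of at least 10 FPKM are a closer background: their median was -0.03, 43.7% lay above 0 and 56.3% below, 10.8% were at least 1.2-fold higher and 14.4% at least 1.2-fold lower. The 4 members that were not compared, Cox4i2, Cox6a2, Cox8b and Ndufa4l2, are described with the isoforms.

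Summed over all members, expression was 7434 FPKM in the wild type and 8224 FPKM in the knockout, or 2.01% and 2.18% of all FPKM. Every complex had a higher sum in the knockout. Complex II had the highest fold of its sum at 1.18 (1.15 to 1.2), followed by complex V at 1.14 (1.13 to 1.15), complex III at 1.10 (1.08 to 1.12), complex I at 1.08 (1.06 to 1.10) and complex IV at 1.08 (1.06 to 1.10). The intervals of complexes II and V did not overlap those of complexes I, III and IV, which overlapped each other. They hold counting error only and are no test of a difference between complexes. As log2 ratios, the sums of complexes I to V gave 0.11, 0.23, 0.14, 0.11 and 0.19. Without the most abundant subunit of each, they gave 0.10, 0.23, 0.16, 0.15 and 0.20. Median log2 ratios of the subunits gave another order: 0.23 for complex II, 0.20 for complex IV, 0.19 for complex V, 0.11 for complex I and 0.05 for complex III. Measured relative to genes of like GC content, complex III (0.17) came before complex I (0.13).

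**Figure D1:**
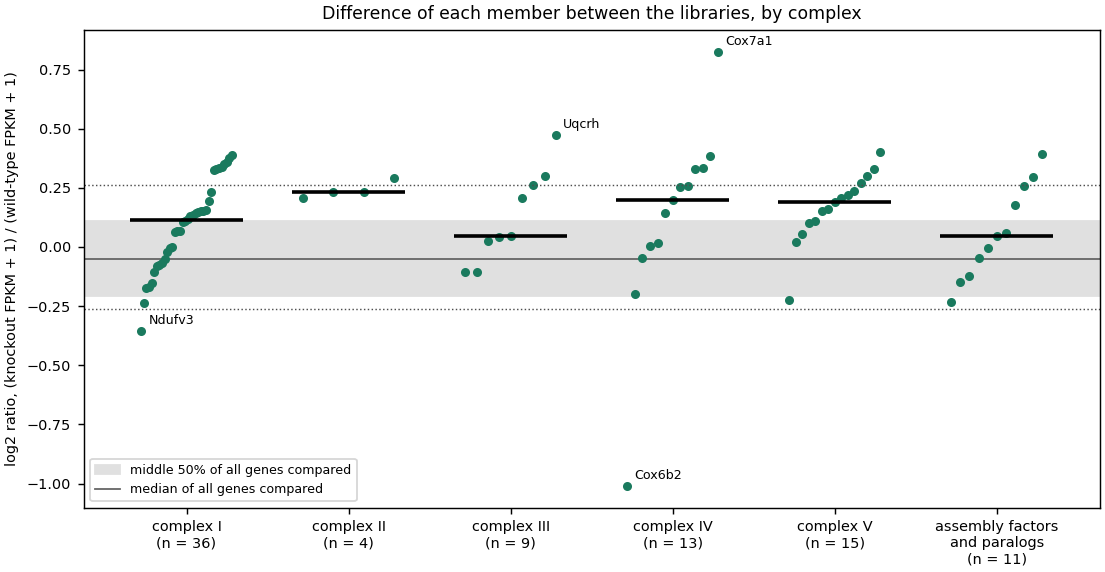
Log2 ratio of each member compared (vertical axis, log2 of knockout FPKM + 1 over wild-type FPKM + 1), grouped by complex (horizontal axis), with the median of each group. All 4 complex II subunits and 14 of 15 complex V subunits lie above 0, and the widest spread is in complex IV, from Cox6b2 at -1.01 to Cox7a1 at 0.82.

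Complex I, the NADH dehydrogenase, was represented by 36 nuclear subunits, of which 24 were above 0 and 12 below. In the knockout 8 subunits were at least 1.2-fold higher and 1 was at least 1.2-fold lower. The sum over the 36 subunits was 1691 FPKM in the wild type and 1828 FPKM in the knockout. The 7 nuclear core subunits carry the flavin and the iron-sulfur clusters and have relatives in bacteria. Among them Ndufv1, which binds NADH and the flavin, was 49.6 FPKM in the wild type and 55.03 FPKM in the knockout. Ndufv2, its iron-sulfur partner, was 63.5 and 79.8 FPKM, 1.26-fold higher (1.19 to 1.33), and Ndufs1, the largest core subunit, was 15.8 and 20.4 FPKM, 1.29-fold higher (1.22 to 1.37). Ndufs3 stood at 31.4 and 34.8 FPKM. The iron-sulfur subunits Ndufs7 and Ndufs8 had lower values in the knockout. Ndufs7 was 36.2 and 34.2 FPKM with an interval that spanned 1, and Ndufs8 was 76.6 and 67.9 FPKM, 1.13-fold lower (1.04 to 1.22). The core as a whole therefore held members on both sides, with a median of 0.15.

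Accessory subunits surround the core and are needed for assembly and stability. Their medians differed by name group, and this difference was not tested. The 13 Ndufa subunits had a median log2 ratio of -0.00 (0.04 where the libraries are scaled so that the median of all genes is 0), with 6 above 0 and 7 below and none past 1.2-fold. Ndufa6 was the most abundant of them at 139 and 155 FPKM, and Ndufa8 was level at 72.4 and 72.5 FPKM. Ndufa2 was lowest in ratio at 77.0 FPKM in the wild type and 65.2 FPKM in the knockout, 1.18-fold lower (1.06 to 1.31). The 12 Ndufb and Ndufc subunits, which belong to the membrane arm, had a median of 0.21, with 10 above 0, 2 below and 5 past 1.2-fold higher. Their most abundant member, Ndufb9, was 165 and 194 FPKM. Ndufb3 was 60.4 and 78.7 FPKM, 1.30-fold higher (1.19 to 1.43), and Ndufb4 was 28.4 and 36.7 FPKM, 1.29-fold higher (1.16 to 1.44). Ndufb5 (8.0 and 10.4 FPKM), Ndufb8 (12.8 and 16.3 FPKM) and Ndufc2 (44.4 and 56.0 FPKM) were 1.30-fold, 1.28-fold and 1.26-fold higher. Against these, Ndufb7 was 13.5 and 12.03 FPKM, 1.12-fold lower (1.03 to 1.22), and Ndufb2 was near the limit of comparison at 1.03 and 0.885 FPKM.

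The 4 accessory subunits with Ndufs or Ndufv names included both ends of complex I. Ndufs4, whose loss is a known cause of complex I deficiency, had the highest ratio at 24.6 and 32.6 FPKM, 1.32-fold higher (1.22 to 1.44). Ndufv3, a small subunit of the NADH module, had the lowest at 18.6 and 14.3 FPKM, 1.30-fold lower (1.17 to 1.44). The subunits of 1 complex thus ranged from -0.36 to 0.39 on the log2 scale.

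The Ndufaf genes encode factors that help build complex I and are not part of the finished enzyme. Their median level in the wild type was 6.55 FPKM, against 58.3 FPKM for structural subunits, although their range of 2.54 to 26.1 FPKM overlaps that of the subunits. Their median log2 ratio was -0.03, with 3 of 8 above 0. Ndufaf6 had the highest ratio at 4.55 and 6.28 FPKM, 1.38-fold higher (1.06 to 1.81), and Ndufaf3 the lowest at 6.99 and 5.80 FPKM, with an interval that spanned 1.

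**Figure D2:**
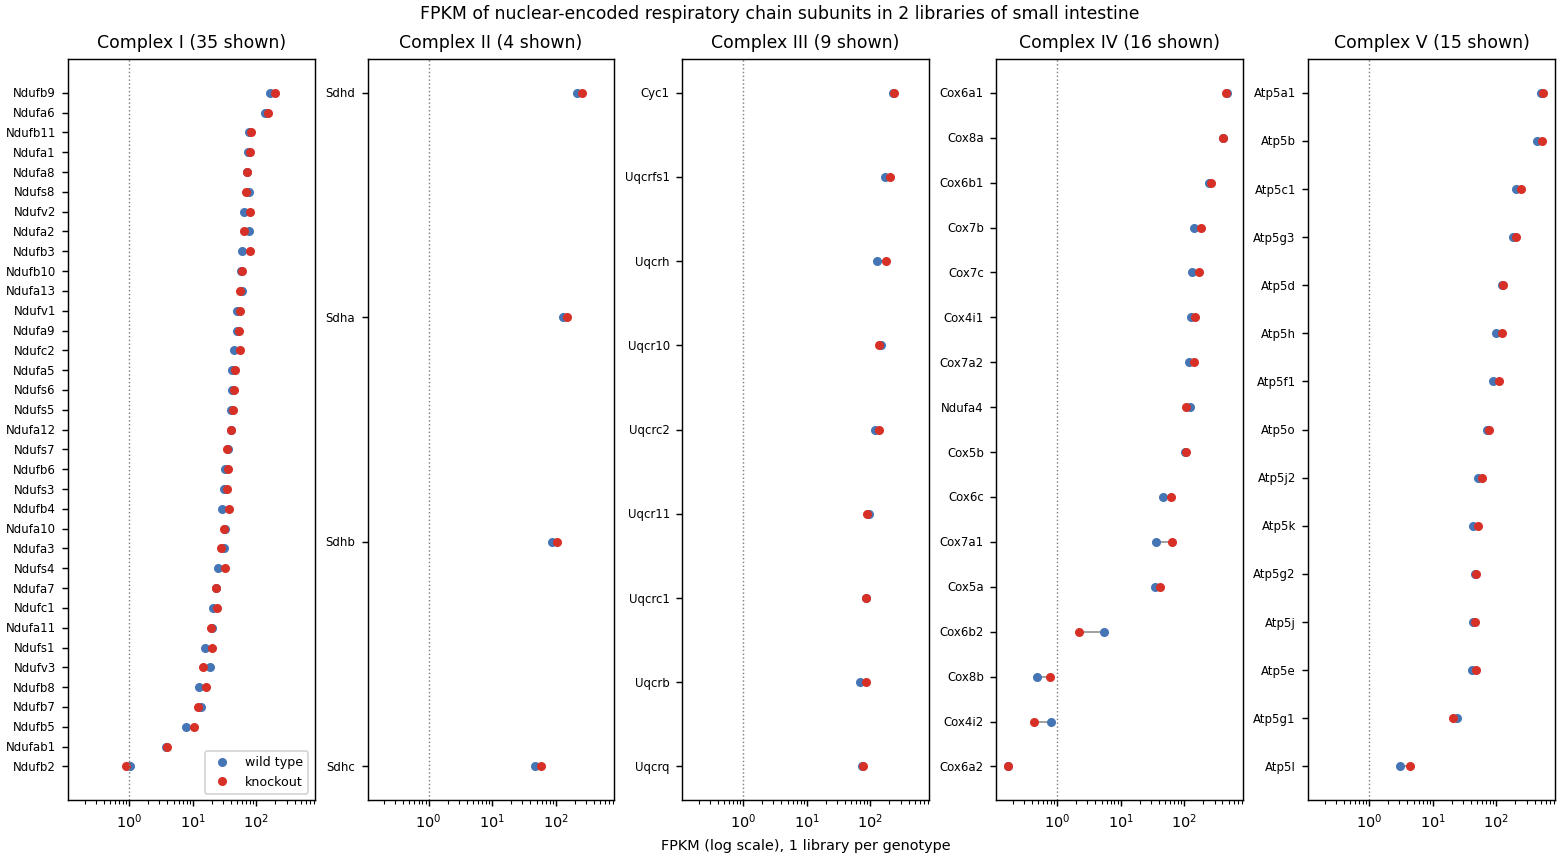
FPKM of the structural subunits in the wild-type and knockout libraries (horizontal axis, log scale), in 1 panel for each complex, with 1 point per library. The dotted line marks 1 FPKM; Atp5a1 is highest at 496 and 551 FPKM, and the tissue-restricted Cox4i2, Cox6a2 and Cox8b lie below the line.

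Complex II, succinate dehydrogenase, links the respiratory chain with the tricarboxylic acid cycle. All 4 subunits were higher in the knockout and all 4 counting intervals lay above 1. Sdha, the flavoprotein that oxidises succinate, was 132 FPKM in the wild type and 152 FPKM in the knockout, 1.16-fold (1.13 to 1.19). Sdhb, the iron-sulfur subunit, was 87.7 and 103 FPKM, 1.18-fold (1.12 to 1.23). The membrane anchors Sdhc and Sdhd bind the quinone. Sdhc was 47.4 and 58.2 FPKM, 1.23-fold (1.17 to 1.29), and was the subunit past 1.2-fold, while Sdhd was 219 and 257 FPKM, 1.17-fold (1.13 to 1.22). The 4 ratios fell within a narrow range, 0.21 to 0.29, although the levels of the subunits differed.

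Promoters of respiratory chain genes are known for sites of NRF1 and of ETS family factors, the family to which Spib belongs, so promoter windows were searched for the NRF1 motif (GCGC, any base, then TGCGC) and for the ETS core CCGGAAGT on both strands. RefSeq windows (build GRCm38.p6) matched 73 of the 92 members. At least 1 window held the NRF1 motif for 19 of the 73 (26.0%) and for 11.2% of the genes compared that have windows. Counted by window and not by gene, the motif was in 4.60% of all 32851 RefSeq windows. By gene, it was found for 2 of 3 members of complex II, 6 of 13 of complex V, 7 of 32 of complex I, 1 of 5 of complex III and 1 of 12 of complex IV. The ETS core was found for 5 of the 73 (6.85%), namely Ndufs3, Uqcr11, Uqcrh, Cox8a and Atp5h, and for 9.12% of the genes compared that have windows. Members with the NRF1 motif had a median log2 ratio of 0.15 and those without it of 0.11, whereas over all genes compared these medians were -0.05 and -0.04. The windows of Sdha, Sdhd and Atp5h are shown. Complexes II and V had the highest summed folds and the largest shares of members with the motif, and Atp5h alone held both motifs. This choice rests partly on the outcome, and a link between motif and ratio was not tested. Within complex II, Sdhb held neither motif and was 1.18-fold higher, against 1.16-fold for Sdha and 1.17-fold for Sdhd. Each window shown is printed 5′ to 3′ on the strand of the gene, with matches in capitals. The Sdha window, chr13:74350191-74350490 on the minus strand, holds 3 NRF1 matches, the first starting at -98 and the last at -10 relative to the start site. The Sdhd window, chr9:50603800-50604099 on the minus strand, holds 1 at -79. The Atp5h window, chr11:115419870-115420169 on the minus strand, holds an NRF1 match at -141 and, apart from it, an ETS match at -39. All matches in these windows read as the motif on the opposite strand, so the capitals show its reverse complement. A match describes the letters and is not evidence of binding.
Sdha: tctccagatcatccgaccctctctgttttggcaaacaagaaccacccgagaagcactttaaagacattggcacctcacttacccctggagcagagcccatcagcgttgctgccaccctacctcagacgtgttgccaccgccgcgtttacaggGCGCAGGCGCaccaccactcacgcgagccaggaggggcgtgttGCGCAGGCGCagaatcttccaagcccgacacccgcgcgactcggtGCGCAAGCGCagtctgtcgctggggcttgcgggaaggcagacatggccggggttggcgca
Sdhd: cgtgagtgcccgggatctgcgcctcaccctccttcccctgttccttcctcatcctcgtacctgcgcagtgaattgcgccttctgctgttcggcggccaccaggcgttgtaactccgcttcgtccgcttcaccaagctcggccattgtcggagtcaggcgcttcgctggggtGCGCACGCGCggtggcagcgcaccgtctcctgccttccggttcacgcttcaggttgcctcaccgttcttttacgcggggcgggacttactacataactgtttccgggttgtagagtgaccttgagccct
Atp5h: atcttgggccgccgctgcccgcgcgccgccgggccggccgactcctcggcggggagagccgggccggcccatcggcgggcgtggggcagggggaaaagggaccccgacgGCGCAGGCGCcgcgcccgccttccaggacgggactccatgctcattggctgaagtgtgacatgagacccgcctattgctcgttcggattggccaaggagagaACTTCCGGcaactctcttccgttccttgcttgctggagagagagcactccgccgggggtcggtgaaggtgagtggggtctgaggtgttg

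Complex III, the cytochrome bc1 complex, passes electrons from reduced coenzyme Q to cytochrome c. Of its 9 nuclear subunits 7 were above 0 and 2 below, and the sum was 1115 FPKM in the wild type and 1226 FPKM in the knockout. The catalytic subunits differed in ratio. Cyc1, cytochrome c1, was the most abundant at 230.2 and 237 FPKM, a fold of 1.03 whose interval spanned 1 (0.991 to 1.07). Uqcrfs1, the Rieske iron-sulfur protein, was 168 and 202 FPKM, 1.2-fold higher (1.15 to 1.25) and just under the 1.2-fold limit with the pseudocount. The core proteins stood apart too, with Uqcrc1 at 84.3 and 85.8 FPKM and Uqcrc2 at 119 and 137 FPKM, 1.15-fold higher (1.11 to 1.2). Uqcrh, the hinge protein that helps cytochrome c1 meet cytochrome c, had the highest ratio of the complex at 126 and 176 FPKM, 1.39-fold (1.33 to 1.46), with 2724 and 3843 reads. Its gene spans chr4:116066965-116075071 on the minus strand. Uqcrb, a quinone-site subunit, was 68.6 and 84.7 FPKM, 1.23-fold higher (1.14 to 1.34). Lowest were the small subunits Uqcr10, at 149 and 139 FPKM, and Uqcr11, at 96.2 and 89.3 FPKM, while Uqcrq was 73.2 and 75.6 FPKM. The median of 0.05 moves with the processing, to 0.02 with equal FPKM sums, 0.10 with the median of all genes set to 0 and 0.17 relative to genes of the same GC class.

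Complex IV, cytochrome c oxidase, reduces oxygen to water. Its catalytic subunits come from the mitochondrial genome, so all 16 nuclear members are accessory subunits: 11 widely expressed forms and 5 tissue-restricted isoforms. Among the widely expressed forms 9 were above 0 and 2 below. The most abundant were level or close to it, with Cox6a1 at 478 FPKM in the wild type and 462 FPKM in the knockout and Cox8a at 410.2 and 411 FPKM. Cox6b1, which bridges the dimer, was 242 and 268 FPKM, 1.11-fold higher (1.05 to 1.16). Cox7b (144 and 181 FPKM) and Cox7c (134 and 169 FPKM) were each 1.26-fold higher, and Cox6c was 47.0 and 61.7 FPKM, 1.31-fold higher (1.25 to 1.38). Cox4i1, the largest nuclear subunit, was 127 and 146 FPKM, 1.15-fold higher (1.10 to 1.2). Cox5a (34.6 and 41.4 FPKM) and Cox7a2 (118 and 141 FPKM) were higher by close to 1.2-fold and fell just under that limit on the log2 scale with the pseudocount, whereas Cox5b was 104 and 105 FPKM. Ndufa4, named as a complex I subunit and now placed in complex IV, was 123 and 107 FPKM, 1.15-fold lower (1.09 to 1.21).

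The most extreme members of the whole set were tissue-restricted isoforms of complex IV. Cox7a1 is the isoform of heart, skeletal muscle and brown fat, and Cox7a2 its widely expressed counterpart. Cox7a1 (chr7:30184144-30186078, plus strand) was 35.6 FPKM from 332 reads in the wild type and 63.8 FPKM from 603 reads in the knockout, 1.79-fold higher (1.57 to 2.06). Its share of the summed FPKM of Cox7a1 and Cox7a2 was 23.2% in the wild type and 31.1% in the knockout. Tissue markers were read beside this value. The other 7 markers of muscle and brown fat found in the table summed to 17.1 and 14.9 FPKM, with none listed at 0, and Ucp1 was not matched. Of the 3 that reached 1 FPKM, the skeletal actin Acta1 was lower at 13.3 and 10.1 FPKM, while the cardiac actin Actc1 (1.03 and 2.17 FPKM) and the creatine kinase Ckm (1.26 and 1.61 FPKM) had higher values. The 8 smooth muscle markers summed to 525 and 582 FPKM, led in fold by Actg2, enteric smooth muscle actin, at 78.6 and 114 FPKM, with Acta2 at 210.2 and 208 FPKM. The 5 white fat markers summed to 48.8 and 76.0 FPKM, of which Cidec, a lipid droplet protein that enterocytes also express, made up 26.7 and 47.3 FPKM, with Cfd, the adipokine adipsin, at 16.1 and 22.97 FPKM, Adipoq at 3.66 and 4.06 FPKM, Retn at 1.27 and 0.825 FPKM and Plin1 at 1.04 and 0.804 FPKM. The part of muscle or fat in the Cox7a1 value was not tested.

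Cox6b2, an isoform known from testis, went the other way. It lies at chr7:4751792-4753094 on the minus strand and was 5.44 FPKM from 105 reads in the wild type and 2.198 FPKM from 43 reads in the knockout, 2.47-fold lower (1.72 to 3.62), and made up 2.198% and 0.814% of the Cox6b pair. The other isoforms were scarce in both libraries. Cox4i2, known from lung and oxygen-sensing cells, was 0.801 and 0.431 FPKM, or 0.626% and 0.294% of its pair. The heart and muscle isoforms Cox6a2 (0.169 and 0.167 FPKM) and Cox8b (0.478 and 0.787 FPKM) also stayed under 1% of their pairs, and Ndufa4l2 was 0.734 and 0.465 FPKM. All 4 counting intervals of these genes spanned 1. Cox7a2l, which joins complexes III and IV into supercomplexes, was abundant at 102 and 125 FPKM, 1.23-fold higher (1.16 to 1.30).

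Complex V is the ATP synthase, and only its nuclear subunits with Atp5 names were taken in, 15 in all. Of these, 14 were above 0 and 12 had counting intervals above 1. Their sum was 1955 FPKM in the wild type and 2230.2 FPKM in the knockout. The F1 head makes ATP in the matrix. Its catalytic beta subunit, Atp5b, was 440.3 and 519 FPKM, 1.18-fold higher (1.16 to 1.2), and its alpha subunit, Atp5a1, the most abundant member of the whole set, was 496 and 551 FPKM, 1.11-fold higher (1.09 to 1.13). The rotating gamma subunit, Atp5c1, was 202 and 244 FPKM, 1.21-fold higher (1.17 to 1.25). At the foot of the shaft, Atp5d was 124 and 129 FPKM with an interval that spanned 1, and Atp5e was 41.3 and 47.8 FPKM, 1.16-fold higher (1.07 to 1.25). All 5 subunits of the head were thus above 0.

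The peripheral stalk holds the head still while the rotor turns. Among its 4 subunits Atp5f1 was 87.99 and 111 FPKM, 1.26-fold higher (1.22 to 1.30), and Atp5h, whose promoter window is shown above, was 99.1 and 122 FPKM, 1.23-fold higher (1.17 to 1.30). Atp5j (43.6 and 46.9 FPKM) and Atp5o, the subunit that gives oligomycin sensitivity (70.7 and 76.4 FPKM), were each 1.08-fold higher. The membrane subunits Atp5j2 (51.4 and 58.8 FPKM), Atp5k (43.8 and 51.1 FPKM) and Atp5l (3.06 and 4.35 FPKM) were also higher, and Atp5l had the highest ratio of the complex.

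The proton-driven c-ring is made from a single mature protein that 3 genes encode. Atp5g3 was the main source at 179.9 and 201 FPKM, 1.12-fold higher (1.08 to 1.15). Atp5g2 was level at 46.7 and 47.3 FPKM. Atp5g1 was 24.5 and 20.8 FPKM, 1.18-fold lower (1.10 to 1.25), the 1 complex V subunit below 0. Their shares of the summed c-ring FPKM were 71.7%, 18.6% and 9.76% in the wild type and 74.7%, 17.6% and 7.74% in the knockout. Atp5s and Atp5sl, which are named for the synthase but are not subunits of it, were 3.46 and 4.33 FPKM and 10.6 and 10.99 FPKM, with intervals that spanned 1.

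Reads of a member can be lost to, or gained from, processed pseudogenes of nearly the same sequence, and the sources used here do not say how the authors' counting divided such reads. At least 1 copy of at least 95% identity was found for 22 members, with 42 copies in all, 38 of them processed pseudogenes. For 9 members the copies summed to at least 10 FPKM in the wild type. In FPKM, Atp5l is the clearest case: its copy Gm10221 was 84.5 and 95.8 FPKM, far above Atp5l itself at 3.06 and 4.35 FPKM. Those values of Atp5l come from 343 and 495 reads over long exons, and the reads of the copies were not compared with them. With the FPKM of all copies added, the values were 91.7 and 105 FPKM, 1.15-fold. Atp5g1 has the copy Gm10039 at 69.8 and 66.0 FPKM, and with it the values were 94.3 and 86.8 FPKM. In these sums of FPKM, Uqcrb (1.18-fold), Cox7c (1.17-fold) and Atp5l were no longer past 1.2-fold, and Ndufa12 moved from just below 0 to just above it. A sum of FPKM gives a read of a short gene more weight than a read of a long gene. Whether Uqcrb, Cox7c and Atp5l stay past 1.2-fold with reads pooled was not tested. Atp5l, Ndufb2 and Ndufab1 also have long summed exons of 6443, 5628 and 6883 bases, and a longer length gives a lower FPKM for the same number of reads.

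**Figure D3:**
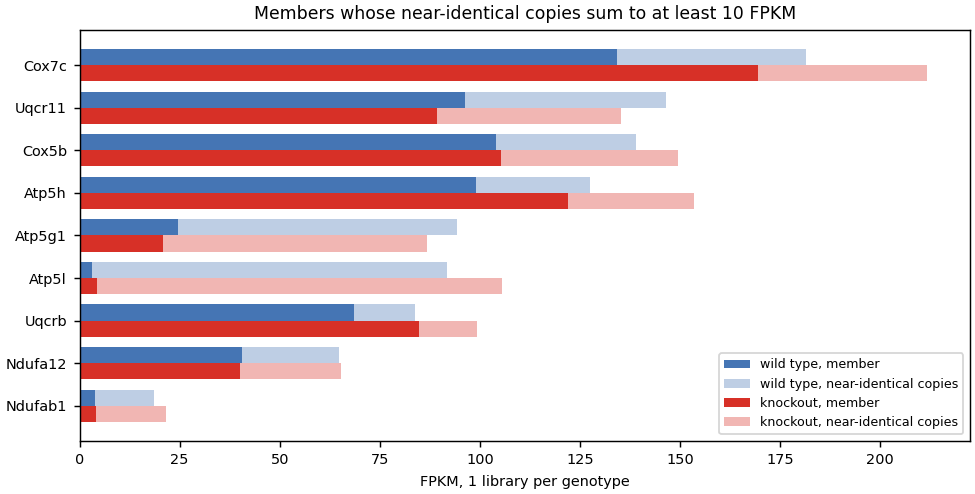
FPKM of the 9 members whose near-identical copies sum to at least 10 FPKM in the wild type (horizontal axis), in the wild-type and knockout libraries, with the member and its copies drawn separately. For Atp5l, Atp5g1 and Ndufab1 the copies hold more FPKM than the member. FPKM is scaled to exon length, and the reads of members and copies were not compared.

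Exon bases were shared with another annotated gene in 32 members. Of the 47 members with neither such bases nor a copy, 45 were compared. Among these, 32 (71.1%) were above 0, close to the 73.9% of all members compared. At least 1.2-fold higher were 7 (15.6%), against 23.9% of all members compared and 11.3% of all genes. Their median log2 ratio was 0.14. Complex IV moved the most: without members that have a copy or shared bases its median was 0.00 in place of 0.20. For the core of complex I it was 0.03 in place of 0.15. For the Ndufb and Ndufc subunits it was 0.13 in place of 0.21, and for the Ndufa subunits 0.05 in place of -0.00. The gap between these name groups was smaller there. Each of these medians rests on fewer genes than the one it replaces. With the FPKM of copies added and all members kept, the 4 medians were 0.20, 0.15, 0.21 and 0.00. Whether the shifts come from copies, shared bases or which genes were left out was not tested.

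Differences between the libraries moved with the GC content of the transcripts. Across the 88 members, Spearman's rho between GC content and log2 ratio was -0.48, and across all genes compared it was -0.22. These are descriptions across genes of the same pair of libraries, which are not independent replicates. Members under 45% GC had a median log2 ratio of 0.33, with 8 of 9 above 0, whereas protein-coding genes of at least 10 FPKM in that class had a median of 0.07. Between 45% and 50% GC, 26 of 29 members were above 0, with medians of 0.23 for members and -0.00 for expressed genes. Between 50% and 55%, 20 of 29 were above 0, with medians of 0.10 and -0.06. At 55% and over, 11 of 21 members were above 0, with medians of 0.00 and -0.12. In each of the 4 classes the members' median was the higher, and measured relative to genes of the same class the median of all members compared was 0.17.

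**Figure D4:**
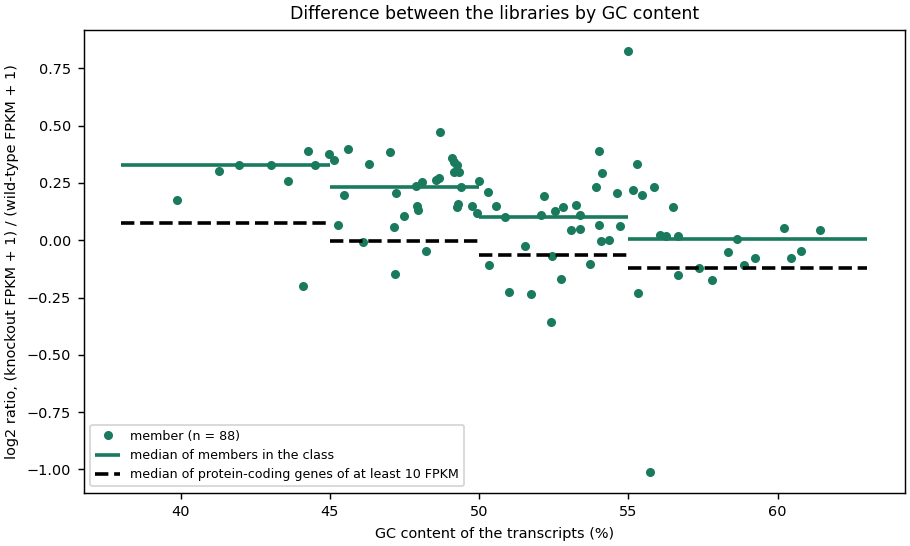
Log2 ratio (vertical axis) against the GC content of the transcripts in percent (horizontal axis) for members and for protein-coding genes of at least 10 FPKM, with class medians. Both decline with GC content, and the members' medians, from 0.33 down to 0.00, lie above those of the expressed genes, from 0.07 down to -0.12.

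The mitochondrial genome encodes the partner subunits of complexes I, III, IV and V, and 12 of its 13 genes were at least 1.2-fold higher in the knockout, with a summed level of 25965 FPKM in the wild type and 35225 FPKM in the knockout, a fold of 1.36. The exception was mt-Atp8 at 1.69 and 0.555 FPKM, which rests on 6 and 2 reads with an interval that spanned 1. Levels in the wild type ran from that value to 12238 FPKM for mt-Co1. Near-identical copies were searched for the nuclear members and not for these genes, so reads lost to copies cannot be judged for them. The corresponding fold of the 80 nuclear subunits was 1.11, and in complex I the folds were 1.48 for mitochondrial and 1.08 for nuclear genes. The 2 sets differ in GC content, with which the ratios moved. It ran from 31.9% to 41.1% in the mitochondrial genes, while the median of the 88 members compared was 51.3%. Members under 45% GC had a median log2 ratio of 0.33. The part of GC content in this contrast was not tested.

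Other mitochondrial and energy genes differed by group. For the 14 genes of the tricarboxylic acid cycle, which feeds NADH and succinate to the chain, the median was 0.23, with 5 at least 1.2-fold higher and none lower. Dlst, a subunit of the oxoglutarate dehydrogenase complex, was 34.1 FPKM in the wild type and 42.8 FPKM in the knockout. Suclg2 (30.8 and 26.3 FPKM) and Idh3g (46.7 and 41.1 FPKM) had the lowest ratios. Electron carriers and coenzyme Q enzymes had a median of 0.17 over 16 genes, with 4 past 1.2-fold higher and none lower. Cytochrome c, Cycs, was 83.0 and 112 FPKM, and the methyltransferase Coq5 was 7.57 and 10.2 FPKM, while Coq2 (14.2 and 14.6 FPKM) and Coq6 (5.08 and 5.75 FPKM) were lowest in ratio among genes of at least 5 FPKM. Carriers and cristae proteins had a median of 0.19 over 19 genes, with 6 higher and 1 lower past 1.2-fold. Their highest ratios among genes of at least 5 FPKM were those of Slc25a4, an exchanger of ADP and ATP, at 30.1 and 42.1 FPKM and of Chchd3, a cristae protein, at 37.5 and 50.8 FPKM. The lowest were those of the prohibitin Phb at 31.2 and 27.5 FPKM and of Atpif1, an inhibitor of the ATP synthase, at 9.84 and 8.72 FPKM.

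Genes that build mitochondria had list medians near 0, and the signs of their list medians depend on the scaling of the libraries, except for the biogenesis regulators. The genes named here are the highest and lowest in ratio among those of at least 5 FPKM in each list. Assembly factors of complex I had a median of -0.04 over 15 genes, with Ndufaf6 and Ndufaf4 (6.32 and 7.27 FPKM) highest and Ndufaf3 and Foxred1 (5.74 and 4.94 FPKM) lowest. Those of complexes II to V had a median of 0.01 over 27 genes, with Tmem70 (17.3 and 20.1 FPKM) and Taco1 (10.7 and 12.4 FPKM) highest and Surf1 (17.4 and 13.1 FPKM) and Uqcc3 (11.9 and 9.77 FPKM) lowest. Protein import genes had a median of 0.01 over 22 genes, with 1 higher and 3 lower past 1.2-fold. Pam16 (4.82 and 6.21 FPKM) and Tomm7 (26.7 and 31.3 FPKM) were highest, and Timm50 (13.9 and 10.6 FPKM) and the chaperonin Hspe1 (53.1 and 43.6 FPKM) lowest. The large subunit of the mitochondrial ribosome, which translates the mitochondrial messages, had a median of -0.02 over 47 genes, with 3 higher and 4 lower past 1.2-fold. Mrpl18 (13.7 and 18.96 FPKM) and Mrpl55 (12.96 and 15.9 FPKM) were highest, and Mrpl22 (16.5 and 11.6 FPKM) and Mrpl57 (6.76 and 4.83 FPKM) lowest. The list of regulators of mitochondrial biogenesis had a median of 0.05 over 17 genes, which was 0.15 among those of at least 5 FPKM and 0.01 with no filter. It includes Mtf2 (4.79 and 4.28 FPKM), which is not known as such a regulator, and the median without Mtf2 was not computed. The coactivator Ppargc1a was 11.1 and 13.2 FPKM, Gabpa, an ETS factor of respiratory genes, was 12.1 and 14.2 FPKM, and Polrmt, the mitochondrial RNA polymerase, was 5.05 and 4.50 FPKM, with Gabpb2 at 8.83 and 8.41 FPKM. Below 5 FPKM, genes chosen after their values were seen went both ways. Nrf1 was 2.73 and 2.34 FPKM, 1.17-fold lower (1.02 to 1.33), and the coactivator Pprc1 was 4.58 and 3.2 FPKM, 1.43-fold lower (1.26 to 1.62). Ppargc1b was 3.44 and 4.23 FPKM, 1.23-fold higher (1.03 to 1.46). Tfb1m, at 2.98 and 3.97 FPKM, had the highest ratio of the list, with an interval that spanned 1.

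Glycolysis, which makes ATP outside the mitochondria, had a higher median than the respiratory chain. It was 0.29 over 17 genes, with 9 at least 1.2-fold higher and 1 lower. Tpi1 was 194 and 259 FPKM and Pgk1 126 and 163 FPKM, while Hk2, an inducible hexokinase, was 15.2 and 8.34 FPKM, and Ldhb 7.42 and 6.28 FPKM. No test of the difference between lists was made.

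**Figure D5:**
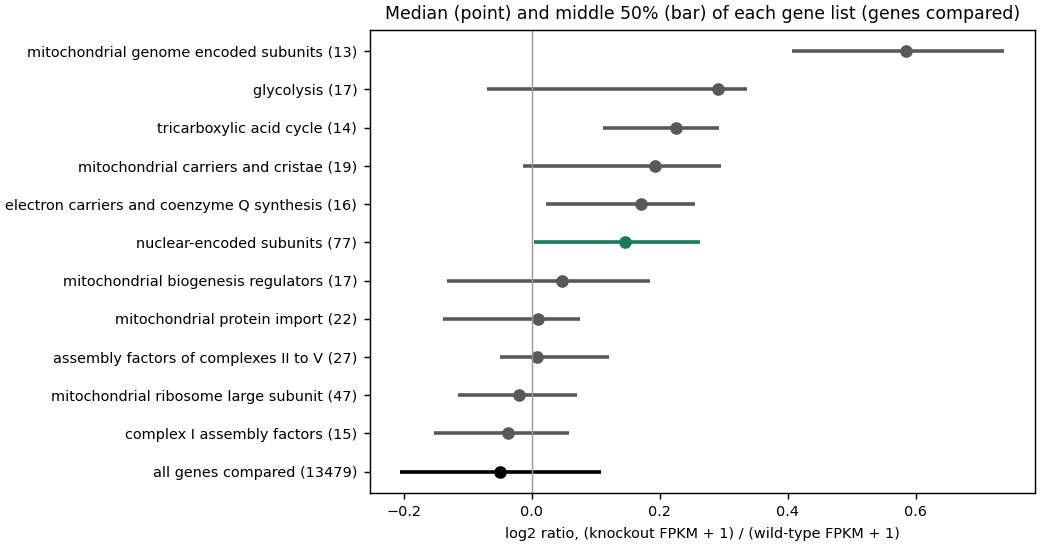
Median (point) and middle 50% (bar) of the log2 ratio of each gene list (horizontal axis), with the number of genes compared beside each name. The mitochondrial genome list (0.59), glycolysis (0.29) and the tricarboxylic acid cycle (0.23) lie to the right of the nuclear-encoded structural subunits (0.15). So do carriers and cristae proteins (0.19) and electron carriers and coenzyme Q enzymes (0.17). Assembly factors and the mitochondrial ribosome lie near 0.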

How the data were processed

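RNA from small intestine was extracted with TRIzol and its cDNA amplified by SMART-SeqII, per the labels' protocols. The authors deposited FPKM values for 27275 genes, 1 column per library. The submitters' processing notes list Bowtie2 2.2.3, HTSeq 0.6.0 and build mm10 and give no roles. The strand setting and annotation release were not given in the sources used here, so overlapping genes and near-identical copies could not be separated.

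Groups came from the titles. Identifiers were joined to GENCODE M21 (27222 matched). Reads were recovered as whole multiples of FPKM by exon length (90.6% and 90.7% of values whole within 0.01) and used for precision only; for 17 members the smallest length that gave whole reads within 0.0005 was used, so their intervals are less certain. Clopper-Pearson intervals at 95% were computed with scipy 1.17.1 in Python 3.11.15. Intervals of summed FPKM combine the counting errors of the subunits. Fold limits of 1.2 and 2 apply to the log2 ratio with a pseudocount of 1. Copies were found with blastn 2.17.0 (at least 95% identity over at least 150 bases and most of the coding length). Named members were the 3 most abundant, the 2 highest and 2 lowest ratios and the catalytic subunits of each complex, all members past 1.2-fold and all isoforms; in other lists, the 2 highest and 2 lowest among genes of at least 5 FPKM, apart from the mitochondrial genome. A few of the genes this rule names are counted in the totals and not reported here singly. The scripts were tested on simulated data. The members and lists were chosen with earlier results of these data known. With 1 library per genotype no test was made.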

Additional observations from a re-analysis of the deposited data

How the results depend on the processing

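With 1 library per genotype, the values below show how far the description moves with the processing and say nothing about variation between mice. No paired analysis was possible because each genotype has 1 library. Of 224 recomputed values, 17 moved past the 95% interval of the reported value (for a median, the binomial interval of its ranked genes, which is wide for short lists) or, for counts, far from it. Within such wide intervals some medians still moved much: without members that have a copy or shared bases, complex IV had 0.00 and the complex I core 0.03, and relative to the GC class complex III had 0.17. The medians nearest 0, those of the Ndufa subunits, assembly factors, protein import and mitochondrial ribosome, changed sign under at least 1 scaling of the libraries. Setting the median of all genes to 0 raised the knockout by 0.05 on the log2 scale, equal FPKM sums shifted it by -0.03, and equal sums of nuclear genes outside the 20 most abundant by 0.03. The median log2 ratio of all members compared stayed between 0.11 and 0.19 over the alternatives run, and between 18 and 30 members were at least 1.2-fold higher, apart from the setting without members that have a copy or shared exon bases, where 32 were above 0 and 7 past 1.2-fold. The alternatives on copies, shared bases and GC class were chosen after seeing the data. With the median set to 0, complex I had a median of 0.16 and glycolysis of 0.34. With equal FPKM sums, the median of complex II was 0.20 and the log2 ratio of summed FPKM was 0.083 for complex I, 0.11 for complex III, 0.079 for complex IV and 0.16 for complex V. With equal sums of nuclear genes, it was 0.15 for complex I, 0.27 for complex II, 0.17 for complex III, 0.14 for complex IV and 0.22 for complex V. Without Cox6a1, its most abundant subunit, the log2 ratio of the complex IV sum was 0.15. These shifts follow from the construction of the rescaling. A stricter NRF1 core, with 1 more base and no free position, was found for 3 members with windows (4.11%, against 1.41% of genes compared). The shorter ETS core CGGAAG was found for 32 (43.8%, against 34.6%), so members lay above the background with this core and below it with the longer one. Members with low read numbers, such as Cox6b2 and Ndufaf6, have wide intervals.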
